A study of Mus musculus with 2 samples.

Results

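The genes described here are 10 genes of the YAP and TEAD pathway, chosen by name, with earlier results of these data known but by no measured value in the rule, out of the 14197 genes in the table that the authors deposited for 4T1 cells. They are the coactivators Yap1 and Wwtr1, the DNA-binding partners Tead1 and Tead4, the target genes Ccn1 (formerly Cyr61), Ccn2 (formerly Ctgf) and Ankrd1, and Amotl2, Lats2 and Ajuba, which act back on the pathway. All 10 were listed in the table and had values in both libraries. 4T1 is a murine mammary carcinoma cell line with a wild-type genotype label, and 1 RNA-seq library was made from cells given 20 μM astragalin (AS), a plant flavonoid, for 24 h, and 1 from cells given the vehicle. Both libraries came from the same line, and the sources used here do not say whether the cells carried the luciferase label used elsewhere in the study. With 1 library per group, no difference between them has a replicate check, no p-value is given, and every interval covers counting error only.

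The Hippo pathway links cell contact, cell shape and tension to gene transcription. Its kinases MST and LATS phosphorylate the coactivators YAP and TAZ (the product of Wwtr1) and keep them in the cytoplasm, and where the kinases are inactive, YAP and TAZ enter the nucleus and bind TEAD proteins on DNA. In dense epithelial cultures YAP is largely cytoplasmic and its target genes tend to be low. Several of these targets, such as Lats2 and Amotl2, encode inhibitors of YAP. The mRNA levels below measure neither the phosphorylation nor the location of YAP. The question put to these genes was whether the AS and the vehicle cells differed in the way that dishes of unequal density would.

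Ccn1, Ccn2 and Ankrd1 were all lower in the AS library, by clearly more than their counting error. The other 7 genes lay within a narrow range, with log2 fold changes from -0.15 for Amotl2 to 0.30 for Tead1. A fold change here is the log2 ratio of the AS to the vehicle value in RPKM, the reads of a gene divided by its exon length and by the size of the library, after 0.1 RPKM was added to both. It was set against a 2-fold threshold, a log2 fold change beyond 1, and a lower 1.5-fold threshold, both taken from the methods of the study. At 2-fold, 0 members were lower and 0 higher, where 0.972% of all genes were past it, 0.310% lower and 0.662% higher. At 1.5-fold, 2 members were lower, Ccn1 and Ccn2, and 0 were higher, where 5.57% of all genes were past it, 2.01% lower and 3.56% higher. How all genes split by direction depended on the scaling. As deposited, 505 genes were higher and 286 lower at 1.5-fold and 94 and 44 at 2-fold. After TMM scaling, which sets the typical gene to no difference, these counts were 391 and 396 at 1.5-fold and 76 and 55 at 2-fold.

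Ccn1 encodes a secreted matricellular protein that binds integrins, and it is among the most used readouts of YAP activity. The gene spans 145646976 to 145649981 on the minus strand of chromosome 3 (GRCm38, the build of all positions here). Its level was 5.28 RPKM in the AS library and 9.66 RPKM in the vehicle library, from 479 and 991 reads. The AS level was thus 54.7% of the vehicle level. On the log2 scale this is a difference of -0.86, and the 95% interval (Clopper-Pearson, from the reads) ran from -1.03 to -0.71. Of the 14197 genes, 77 had a lower value.

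Ccn2, also called connective tissue growth factor, encodes a secreted protein of the same family with a role in matrix production, and in bone metastasis of breast cancer it is known as a factor made by the tumor cells. The gene spans 24595442 to 24598683 on the plus strand of chromosome 10. AS cells had 9.11 RPKM of Ccn2 and vehicle cells 15.4 RPKM, from 1170 and 2246 reads. Its log2 fold change of -0.76 had an interval from -0.87 to -0.66, and 127 genes were below it. The intervals of Ccn1 and Ccn2 overlapped.

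The annotation places Gm15270, a processed transcript on the opposite strand, across 665 exon bases of Ccn2, which is 23.2% of its exon length. Gm15270 was also lower with AS, at 3.80 against 5.86 RPKM, a log2 fold change of -0.61. The library kit keeps the strand, but the sources used here do not say whether the reads were counted by strand, so reads of the shared part cannot be assigned to one of the genes with certainty. Ccn1 and Ankrd1 share no exon bases with another annotated gene.

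Ankrd1 encodes a nuclear ankyrin repeat protein that is known from stretched heart muscle and serves as a YAP target in many epithelial lines. The gene spans 36111961 to 36120099 on the minus strand of chromosome 19. It was the highest of the members in both libraries, at 44.1 RPKM with AS and 63.2 RPKM with the vehicle, from 5711 and 9271 reads. Its value of -0.52 on the log2 scale had an interval from -0.57 to -0.47, which does not overlap that of Ccn2, and 400 genes had a lower value. With the deposited scaling it stayed short of 1.5-fold. It passed at -0.59 under TMM, at -0.59 under median-of-ratios and at -0.60 under upper-quartile scaling, so that 3 members were then lower at this threshold. Under these scalings 2.79%, 2.80% and 2.94% of all genes were lower at it, against 2.01% as deposited.

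**Figure D1:**
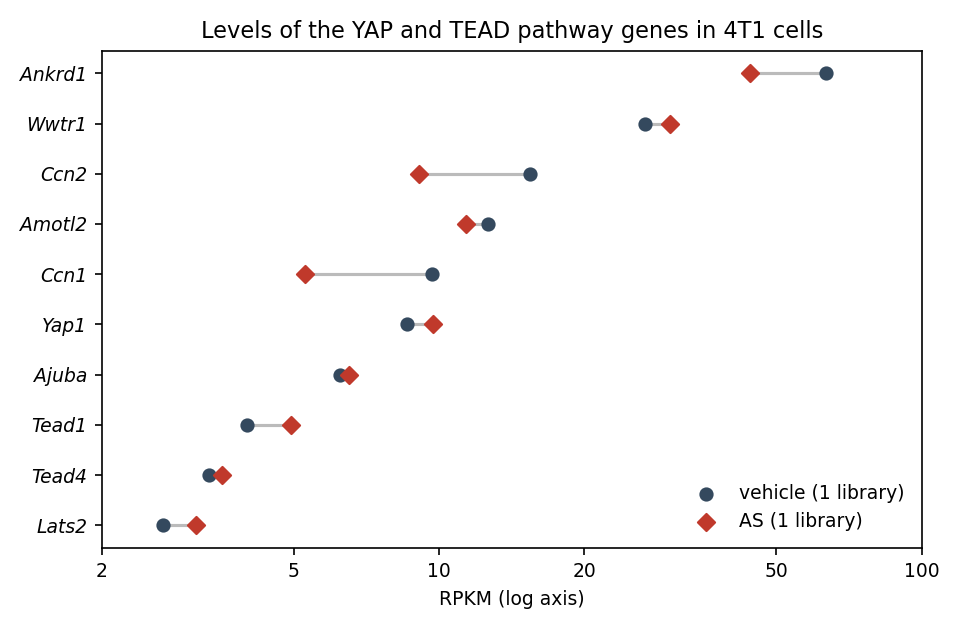
Level of each of the 10 genes in RPKM (log axis) in the vehicle library (circles) and the AS library (diamonds), ordered by the vehicle level. The widest gaps are those of Ccn1, Ccn2 and Ankrd1, with the AS value on the left, and Ankrd1 is the highest gene in both libraries.

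**Figure D2:**
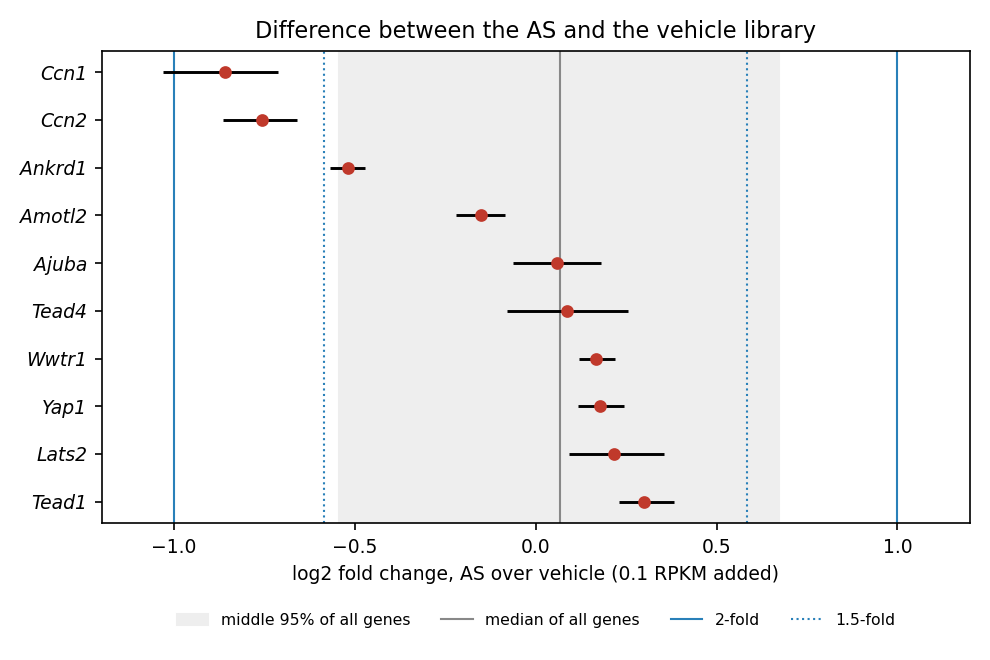
Log2 fold change of AS over vehicle for each of the 10 genes (points) with the 95% Clopper-Pearson interval of the reads (bars, counting error only), over the middle 95% of all 14197 genes (grey), their median of 0.07 and the thresholds of 1.5-fold and 2-fold. Ccn1 and Ccn2 lie outside the grey range, Ankrd1 just inside its lower edge of -0.54, and the other 7 genes near its centre.

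The promoters of these genes were searched for the TEAD hexamer GGAATG on both strands, in the 250 bases before each RefSeq transcription start (GRCm38.p6). RefSeq entries were found for 7 members with 9 starts, and Ccn2, Tead1 and Tead4 had none in the table used. The hexamer stood in 7 of the 9 windows and before 6 of the 7 genes, where 12.6% of all 32851 windows and 10.6% of the 12391 windows of genes in the deposited table hold it. It stood before Ccn1 and Ankrd1, which were lower with AS, and also before Amotl2, Ajuba, Yap1 and Wwtr1, whose values lay between -0.15 and 0.18. Both windows of Lats2 lacked these letters. The AP-1 motif TGANTCA and the CArG box, the binding motif of SRF, were found 0 times in the 9 windows, where 6.75% and 1.47% of all windows hold them. No hexamer thus overlapped another motif, and a match is a run of letters and not a measured binding site.

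The window of Ccn1 is given whole, because it belongs to the gene with the largest difference and holds no annotated exon. It is on the minus strand at chr3:145649986-145650235, and the capitals mark the hexamer, here in reverse orientation with its first base 103 bases before the start.
Ccn1 promoter: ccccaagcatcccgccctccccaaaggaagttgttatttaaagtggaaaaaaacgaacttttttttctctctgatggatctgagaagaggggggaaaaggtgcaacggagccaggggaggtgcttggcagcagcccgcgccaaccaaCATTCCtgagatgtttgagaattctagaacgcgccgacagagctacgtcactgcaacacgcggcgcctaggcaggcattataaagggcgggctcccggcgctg

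The window of Ajuba is given for contrast, as that of a gene whose level hardly differed and which has 2 hexamers, 186 and 164 bases before the start. It is on the minus strand at chr14:54577662-54577911, and the capitals again mark the hexamers in reverse orientation. The window lies outside the span that the GENCODE annotation gives the gene, which begins at 54577558 and so does not adjoin the window. The distances above are from the RefSeq start, and by GENCODE both hexamers lie farther from the gene.
Ajuba promoter: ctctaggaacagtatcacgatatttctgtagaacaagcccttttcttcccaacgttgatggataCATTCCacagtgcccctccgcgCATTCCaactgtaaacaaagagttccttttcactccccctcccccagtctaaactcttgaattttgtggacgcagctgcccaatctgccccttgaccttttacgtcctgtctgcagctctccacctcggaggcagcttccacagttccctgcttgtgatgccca

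For the remaining genes, shown so that sites of lower and of little changed genes can be set side by side, only 30 bases around each hexamer are given, since at least 1 window of each overlaps annotated exons of the gene or, for Yap1, of a neighbour. The hexamers of Ankrd1 lie 210 and 123 bases before the RefSeq start, at chr19:36120037-36120066 and chr19:36119950-36119979 with their flanks, both on the strand of the gene. GENCODE exons of Ankrd1 cover all 250 bases of its window, so by that annotation both sites lie within the gene. The others are at chr9:102717727-102717756 for Amotl2, chr9:8004720-8004749 for Yap1 and chr3:57576029-57576058 for Wwtr1, where 1 hexamer is shared by the windows of both starts.
Ankrd1 distal site: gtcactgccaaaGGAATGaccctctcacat
Ankrd1 proximal site: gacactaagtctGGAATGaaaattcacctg
Amotl2 site: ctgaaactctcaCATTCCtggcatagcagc
Yap1 site: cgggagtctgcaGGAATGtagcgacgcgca
Wwtr1 site: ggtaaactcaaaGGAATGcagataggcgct

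**Figure D3:**
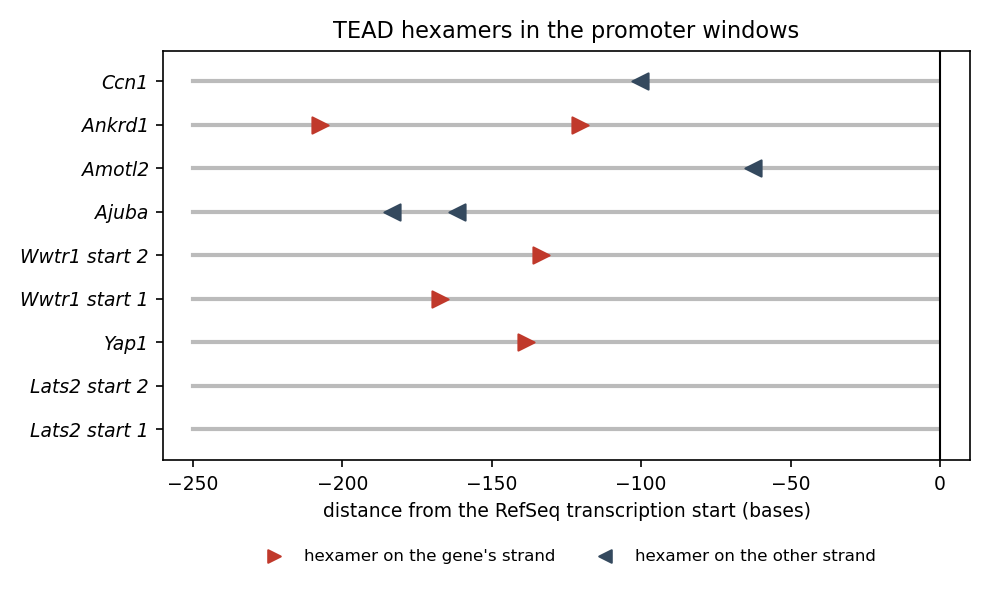
Position of the TEAD hexamer in the 250 bases before 9 RefSeq starts of 7 members (grey lines, distance in bases, 0 is the start), with triangles pointing right for the strand of the gene and left for the other strand. Genes are ordered by log2 fold change from Ccn1 at the top to Lats2, and only Lats2 has no triangle.

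Of the genes that act back on the pathway, Amotl2, Lats2 and Ajuba, none reached 1.5-fold in either direction. Amotl2 encodes an angiomotin protein that binds YAP and holds it at cell junctions, and it is also a target of YAP. The gene spans 102716672 to 102733418 on the plus strand of chromosome 9. Its level was 11.4 RPKM with AS and 12.7 RPKM with the vehicle, from 3215 and 4044 reads. Its value of -0.15 on the log2 scale had an interval from -0.22 to -0.09, the same direction as the 3 targets but clear of their intervals.

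Lats2 encodes a kinase that phosphorylates YAP and is itself induced by YAP. The gene spans 57689662 to 57758388 on the minus strand of chromosome 14 and was the lowest of the members, at 3.13 RPKM with AS and 2.68 RPKM with the vehicle, from 980 and 950 reads. Its log2 fold change was 0.22, with an interval from 0.09 to 0.35, so that this target was higher and not lower with AS. A protein-coding entry on the same strand, Gm49361, covers 2955 of its exon bases, 42.4% of its length, and had a log2 fold change of 0.20. Reads in the shared bases cannot be assigned to one of them. Ajuba, on chromosome 14 from 54567472 to 54577558 on the minus strand, encodes a LIM-domain protein of cell junctions that holds LATS kinases back. Its level was 6.49 RPKM with AS and 6.23 RPKM with the vehicle, from 1063 and 1154 reads. Its log2 fold change was 0.06, and the interval ran from -0.06 to 0.18 and holds both 0 and the median of all genes, 0.07.

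The coactivators themselves were slightly higher with AS. Yap1, on chromosome 9 from 7931999 to 8004596 on the minus strand, had 9.72 RPKM with AS and 8.58 RPKM with the vehicle, from 4042 and 4036 reads. Wwtr1, the gene of TAZ on chromosome 3 from 57455649 to 57575910 on the minus strand, had 30.02 RPKM with AS and 26.7 RPKM with the vehicle, from 6444 and 6490 reads. Their log2 fold changes of 0.18 and 0.17 had intervals from 0.12 to 0.24 and from 0.12 to 0.22, and they were alike within counting error. Wwtr1 made up 75.5% of the summed RPKM of the pair with AS and 75.7% with the vehicle, so TAZ mRNA was 3.09 and 3.11 times that of YAP. Gm20416, a processed transcript on the opposite strand, shares 116 exon bases with Yap1, 1.25% of its exon length, and had a log2 fold change of 0.21.

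TEAD proteins bind DNA and recruit YAP or TAZ to it. Tead1 (chromosome 7, 112679318 to 112906807, plus strand) had 4.94 RPKM with AS and 4.00 RPKM with the vehicle, from 3013 and 2758 reads. Its log2 fold change of 0.30, with an interval from 0.23 to 0.38, was the highest of the members, yet 2414 genes were above it. Tead4, on chromosome 6 from 128224288 to 128300823 on the minus strand, had 3.55 RPKM with AS and 3.34 RPKM with the vehicle, from 573 and 610 reads. Its log2 fold change was 0.09, with an interval from -0.08 to 0.25. Tead2 and Tead3, which are not members, had 11.2 and 1.37 RPKM with AS and 11.6 and 1.37 RPKM with the vehicle. The TEAD mRNA in both libraries was therefore mostly that of Tead2, with 53.2% of the summed RPKM of the family with AS and 57.2% with the vehicle. Summed over the 4 genes, the TEAD level was 21.1 RPKM with AS and 20.4 RPKM with the vehicle.

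By counting error alone, the intervals of 4 members were below 0, those of 4 were above 0 and those of 2 held 0. Of all genes, 19.8% had an interval below 0 and 37.6% one above it, so an interval clear of 0 was common in these libraries. The same split of the members held against the median of all genes, where 27.9% of all genes had an interval below it and 27.6% one above. The median log2 fold change of the 10 genes was 0.07, equal at this rounding to that of all genes, with 4 genes lower and 6 higher in the AS library. The small positive values of Yap1, Wwtr1, Tead1 and Lats2 depend on the processing. With the median of genes of similar exon length taken off, they were 0.049 for Yap1, 0.094 for Wwtr1 and 0.13 for Tead1, and over all alternatives the value of Lats2 ranged from 0.10 to 0.22. Those of Ajuba and Tead4 changed sign among the alternatives, with ranges from -0.02 to 0.07 and from -0.01 to 0.09. The values of Ccn1, Ccn2, Ankrd1 and Amotl2 were negative under every alternative run. They ranged from -0.94 to -0.76 for Ccn1, from -0.84 to -0.70 for Ccn2, from -0.60 to -0.50 for Ankrd1 and from -0.25 to -0.14 for Amotl2.

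**Figure D4:**
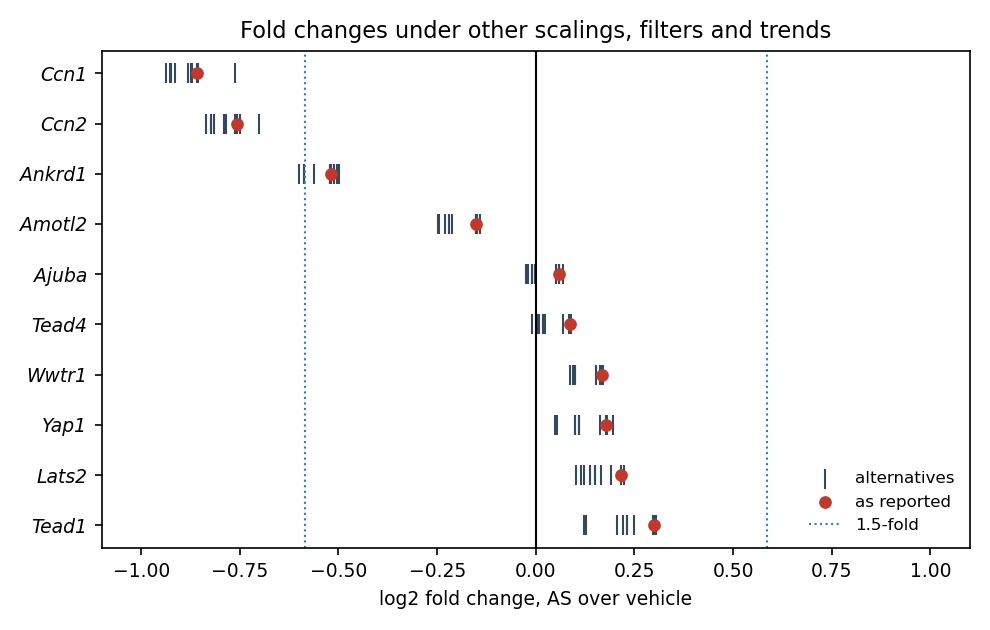
Log2 fold change of each gene as reported (points) and under each of the alternatives to the scaling, the added amount, the filters, the depth and the trends (ticks). The ticks of Ccn1 and Ccn2 all lie beyond the 1.5-fold threshold, those of Ankrd1 lie on both sides of it, and those of Ajuba and Tead4 on both sides of 0.

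Related genes of the same families were set beside the members. Among the CCN genes, Ccn4 had 2.97 RPKM with AS against 2.64 RPKM, which is 0.17 on the log2 scale. Ccn3 was near the lower end of the table, with 42 reads in the AS and 70 in the vehicle library. Its log2 fold change of -0.45 had an interval from -1.15 to 0.01. Ccn5 and Ccn6 were not listed in the table. Ccn1 and Ccn2 held most of the CCN mRNA, and the summed level of the 4 listed genes was 17.7 RPKM with AS and 28.2 RPKM with the vehicle. Lats1 had a level of 8.65 RPKM with AS, 2.76 times that of Lats2, and in the vehicle library it was 2.61 times that of Lats2. Amotl1 was the main angiomotin, with 84.5% of the family's summed RPKM with AS and 81.8% with the vehicle. On the log2 scale Amotl1 differed by 0.18 and Amot by 0.10. Limd1, which acts like Ajuba on LATS, had a log2 fold change of 0.33, and Wtip was not listed.

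Of the rest of the pathway, 0 genes in the lists below were lower at 1.5-fold. Of all genes, 2.01% were lower at it and 3.56% higher, and in lists this short a count of 0 says little. The 10 genes of the kinase cascade around MST (Stk3, Stk4) and LATS had log2 fold changes from -0.05 for Taok2 to 0.38 for Taok3, a kinase that acts on MST, with a median of 0.15, and 0 of them reached 1.5-fold. Of 19 upstream regulators and adaptors, 16 were listed, with a median of 0.19, and 1 was higher at 1.5-fold and 0 lower. That gene was Crb3, which encodes a polarity protein of the apical membrane and was at 1.55 RPKM with AS and 0.818 RPKM with the vehicle. It had 109 and 65 reads, and its log2 fold change of 0.85 had an interval from 0.47 to 1.39. The 8 listed genes of nuclear partners and YAP turnover had a median of 0.0049. The lowest value was -0.22 for Vgll3, a TEAD cofactor near the lower end of the table with 67 reads with AS and 94 with the vehicle. Its interval from -0.78 to 0.16 holds 0. The highest was 0.21 for Fbxw11, a subunit of the ubiquitin ligase that marks YAP for degradation. The medians of these lists moved with the removal of the exon length trend, to 0.025 for the kinases, 0.045 for the regulators and -0.11 for the nuclear partners.

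Of 23 other genes described as targets of YAP and TAZ, 19 were listed. At 1.5-fold, 2 of them were higher and 0 lower, where 3.56% of all genes were higher and 2.01% lower. Their median was 0.13. F3, which encodes tissue factor, the starter of blood clotting, rose from 1.31 RPKM in the vehicle library to 2.56 RPKM in the AS library, 0.92 on the log2 scale, with an interval from 0.69 to 1.25. Gadd45a, a growth arrest gene that is induced by several kinds of stress, rose from 44.3 to 73.2 RPKM, 0.72 on the log2 scale. Of the 19 targets, 11 lay above the median of all genes and 8 below it. Chosen after their values were seen, Birc5, the gene of the mitotic protein survivin, had a log2 fold change of -0.50, the lowest of the list. Likewise chosen, the EGF receptor ligand gene Areg had 0.56, the ectonucleotidase gene Nt5e 0.42 and the receptor kinase gene Axl 0.15.

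Ccn1, Ccn2 and Ankrd1 are also known to respond to MRTF and SRF, which sense actin. A list of 18 genes holds other such targets and also the factors Srf, Mrtfa and Mrtfb themselves. Of these 18, 16 were listed in the table, with a median log2 fold change of -0.0048. At 1.5-fold, 0 of them were past the threshold, where 5.57% of all genes were. The lowest value was -0.43 for Tagln2, an actin-binding protein gene, and the highest 0.37 for Tagln, which had 85 and 72 reads. Of the 16 listed, 6 lay above the median of all genes and 10 below it. Srf, Mrtfa and Mrtfb, which are not targets in this list but its factors, were among those above. Among genes chosen after their values were seen, the beta-actin gene Actb had -0.41 and Cnn2 -0.30. Likewise chosen, Tpm1 had -0.20, Tpm2 -0.19 and Tpm4 -0.19, while the gamma-actin gene Actg1 had 0.018. Of the factors, also chosen in this way, Srf had 0.07, Mrtfa 0.11 and Mrtfb 0.11.

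**Figure D5:**
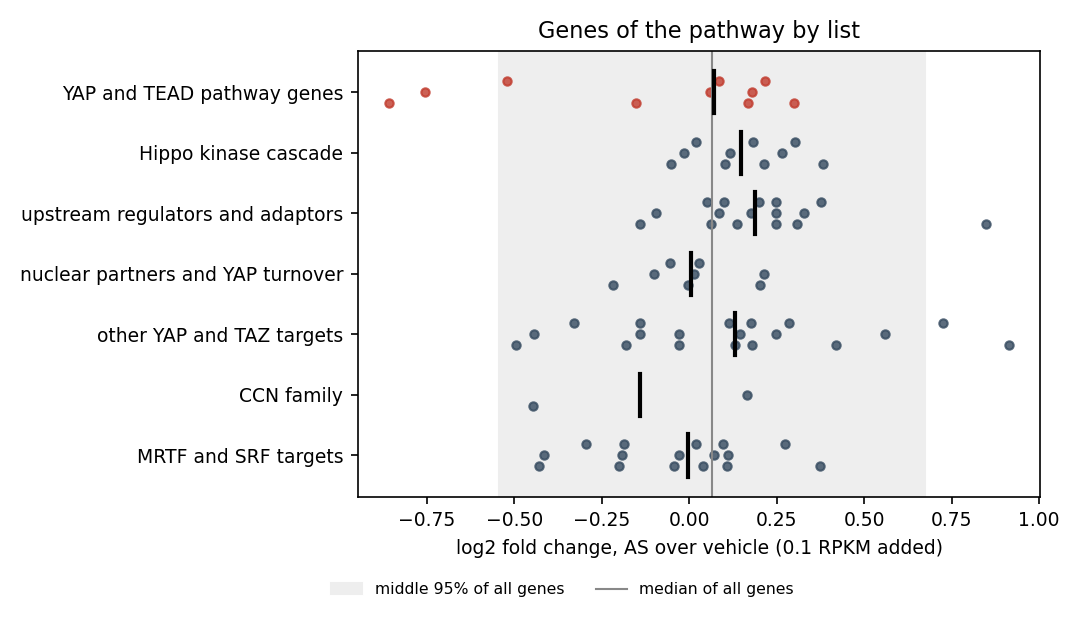
Log2 fold change of every listed gene of the 7 gene lists (points) with the median of each list (black bar), over the middle 95% of all genes (grey) and their median (line). The 10 members form the upper line, in which Ccn1 and Ccn2 lie to the left of the grey range, while Crb3, F3 and Gadd45a lie to its right in their lists.

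The identity of the cells was checked with marker genes. All 6 epithelial markers were listed, with a summed level of 1574 RPKM with AS and 1931 RPKM with the vehicle, led by Krt18 and Krt8. Of 8 fibroblast markers 4 were listed, with sums of 6.08 and 5.67 RPKM, mostly of Pdgfra, and Col1a1, a gene that defines fibroblasts, was at 0.896 and 0.711 RPKM. The sums of the 3 listed of 6 immune markers were 2.90 and 2.38 RPKM, and none of the 4 endothelial markers was listed. The 6 epithelial markers did not move as one. Krt8, Krt18 and Epcam were lower with AS, with log2 fold changes of -0.54, -0.35 and -0.09. Cdh1, the E-cadherin gene of cell contacts, had 0.17, Cldn4 0.42 and Esrp1 0.47. The part of other cells in the values of Ccn1, Ccn2 and Ankrd1 was not tested.

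The libraries held 44909683 reads for AS and 50820728 for the vehicle, as the values imply, and 60.9% of all genes had a log2 fold change above 0. The members had from 479 to 9271 reads in a library, so counting error was small beside the differences of Ccn1, Ccn2 and Ankrd1. In bulk RNA, fewer cells of a kind and less RNA per cell cannot be told apart. The number of cells per dish is not given in the sources used here, and an effect of AS and a difference in density between the dishes cannot be told apart with 1 library per group.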

How the data were processed

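The authors deposited 1 table for both libraries. Its expression columns hold RPKM, a unit that the deposited header does not name and that was found from the values. The authors also give a log2 of the mean CPM per gene, and a fold change, a p-value and an FDR of their own comparison, which were not used. The submitters' processing notes name fastp (0.23.4), STAR (2.5.3a) and featureCounts, and a human build, GRCh38, although the cells are murine. The filter on low genes is not given in the sources used here, and the strand setting of the counting is not either.

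Library totals were taken as the numbers for which RPKM times exon length (GENCODE M21, GRCm38) gave whole reads. Of the 13502 genes whose symbol that annotation holds once, 94.2% came out whole within 0.001 reads, so coordinates are taken from it. With the mean log2 CPM for the other genes, whole reads were recovered for 99.97% of all genes, and the remaining 4 were estimated. The recovery was tested on simulated data. The table holds 1 library per group, so no test was run. Fold changes use 0.1 added RPKM, and intervals are exact binomial (Clopper-Pearson, 95%). A total of 12 alternatives were computed, of which 1, the joint removal of the expression and length trends, was chosen after seeing the data. Trends were medians in 20 bins.

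The members, like all gene lists, were chosen by name with earlier results of these data known. Named by rule are all members and genes of their families. From each list, up to 4 genes at either end at or past 1.5-fold were named or, where there is none, the highest and the lowest. Cell type markers are named beside these, and further genes are marked in the text as chosen after their values were seen. Reads without molecular identifiers are not independent molecules. Python 3.11, numpy 2.4.6, pandas 2.3.3 and scipy 1.17.1 were used.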

Additional observations from a re-analysis of the deposited data

How the results depend on the processing

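No paired analysis was possible because each group has 1 library, and leaving out a library was not possible for the same reason. No member passed 2-fold under any alternative run. At 1.5-fold in its place, 2 members were lower, 1 upstream regulator was higher and 2 other YAP and TAZ targets were higher. Of all genes, 2.01% were lower at it and 3.56% higher. The median of the members moved to -0.017 with the expression trend removed. That of the kinase cascade was 0.082 with TMM, 0.082 with median-of-ratios and 0.071 with upper-quartile scaling, 0.061 without the expression trend, 0.025 without the length trend and 0.026 without both. For upstream regulators it was 0.11 with upper-quartile scaling, 0.045 without the length trend and 0.055 without both. For nuclear partners it was -0.096 without the expression trend, -0.11 without the length trend and -0.12 without both, and for other targets 0.0054 without the length trend. The cause was not tested. The count of all genes beyond 2-fold was 138, and it was 227 with 0 RPKM and 54 with 1 RPKM added. The count at 1.5-fold was 791, and 319 with 1 RPKM added. TMM scaling lowered log2 ratios by 0.07 before the added RPKM, and those of low genes by less after it, and depth limits most the genes with few reads, such as Ccn3 and Crb3.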
